A study of Mus musculus with 9 samples.

Results

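Of the 18774 places where 2 or more of 6 CUT and RUN libraries had a MyoD1 peak, 1749 (9.32%) lay between genes but close to one: their centre was more than 1 kb and at most 10 kb from the nearest annotated transcript start, and outside the body of every protein-coding gene. They were found by merging the peaks of the 6 SEACR lists wherever they overlapped or touched, keeping regions with peaks of at least 2 libraries, and measuring from the centre of each region on the mouse build mm10 with the GENCODE vM21 basic annotation. No signal value entered this choice beyond the call itself. The 1749 intergenic sites are set beside 2748 genic sites at the same distance from a start, 2487 intergenic sites more than 10 kb from any start, and 8456 promoter sites within 1 kb of a start.

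C2C12 is a mouse myoblast line. All 6 cultures came from 1 homozygous knock-in clone in which the endogenous Myod1 gene carries a 3xFlag-Halo tag and which also holds a 3xFlag-Halo-MyoD1 transgene under a doxycycline-inducible promoter, so the anti-Flag antibody cannot tell the endogenous protein from the induced one. In 3 cultures (no dox) differentiation was started without doxycycline, and in the other 3 (+dox) doxycycline was added at the same moment and left for 6 h. CUT and RUN sends a nuclease to the antibody and sequences the DNA it releases. The 3 libraries of wild-type cells in the series were not analysed here, so no untagged background stands beside the values.

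MyoD1 is a basic helix-loop-helix factor that starts the muscle program. It binds DNA as a dimer with an E protein at E-boxes, short palindromes of the form CANNTG, and prefers the core GC that makes CAGCTG. Regulatory DNA a few kb from a start, outside the transcribed gene, commonly acts as an enhancer of the neighbouring gene. Many such elements in myoblasts also carry TGANTCA, the site of AP-1, a dimer of Fos and Jun family proteins.

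The libraries were uneven. The lists held 9389, 13877 and 13403 peaks without dox and 12536, 13260 and 53661 with dox (replicates 1, 2 and 3, in this order here and below), at depths of 2868000 to 8030000 alignments inferred from the smallest step of the signal. The +dox replicate 3 list was both the deepest and by far the longest. It held a peak at 1732 of the 1749 intergenic sites (99%) and at 96.7% of all regions. Of these sites, 345 (19.7%) were called in the number 3 libraries of the 2 groups and in no other, where 12.8% of all regions were. For the counts of calls and the comparisons of means, values without this list are given beside those that it moves most.

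The strongest intergenic sites are shown first as sequence, since 7 of the 8 hold CAGCTG within 100 bp of the signal maximum. A height percentile is the rank of a peak's maximum signal in its own list, and these are the top 8 by the mean of that percentile among the sites that every library called. Each line gives the nearest protein-coding gene within 10 kb, or otherwise the nearest annotated transcript, then the 200 bases around the maximum in mm10 on the plus strand, 5′ to 3′, with CAGCTG and TGANTCA in capitals. Both motifs read the same on the other strand.
Serpinh1 (chr7:99360126-99360325): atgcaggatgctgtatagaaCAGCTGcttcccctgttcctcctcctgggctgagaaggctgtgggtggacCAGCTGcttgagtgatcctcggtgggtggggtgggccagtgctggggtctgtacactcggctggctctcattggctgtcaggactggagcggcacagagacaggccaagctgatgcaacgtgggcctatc
Gm26887 (chr8:84192076-84192275): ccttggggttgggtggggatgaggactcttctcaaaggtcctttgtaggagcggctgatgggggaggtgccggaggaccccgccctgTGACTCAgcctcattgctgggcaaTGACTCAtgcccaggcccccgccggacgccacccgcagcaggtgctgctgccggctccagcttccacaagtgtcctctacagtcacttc
Nctc1 (chr7:142551076-142551275): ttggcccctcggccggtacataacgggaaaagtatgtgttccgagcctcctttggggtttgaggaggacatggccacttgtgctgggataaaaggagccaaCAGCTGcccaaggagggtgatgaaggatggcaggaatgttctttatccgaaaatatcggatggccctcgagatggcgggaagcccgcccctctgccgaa
Pacsin2 (chr15:83469476-83469675): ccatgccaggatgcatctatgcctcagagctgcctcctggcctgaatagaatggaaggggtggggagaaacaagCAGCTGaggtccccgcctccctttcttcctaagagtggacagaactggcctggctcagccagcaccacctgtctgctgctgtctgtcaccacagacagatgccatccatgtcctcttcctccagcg
Gm32585 (chr5:125268526-125268725): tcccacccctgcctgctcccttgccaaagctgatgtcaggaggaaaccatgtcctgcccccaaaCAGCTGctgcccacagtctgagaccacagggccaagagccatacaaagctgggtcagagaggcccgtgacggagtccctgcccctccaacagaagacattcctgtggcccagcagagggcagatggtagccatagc
1700025H01Rik (chr16:30185026-30185225): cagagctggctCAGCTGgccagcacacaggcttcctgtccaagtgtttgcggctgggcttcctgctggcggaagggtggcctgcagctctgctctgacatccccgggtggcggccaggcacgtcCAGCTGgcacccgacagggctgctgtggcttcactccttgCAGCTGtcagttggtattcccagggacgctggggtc
Lama5 (chr2:180227726-180227925): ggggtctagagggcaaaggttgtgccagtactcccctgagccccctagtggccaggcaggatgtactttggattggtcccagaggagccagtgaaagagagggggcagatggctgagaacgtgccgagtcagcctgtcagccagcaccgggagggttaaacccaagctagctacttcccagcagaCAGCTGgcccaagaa
Tmem88b (chr4:155781026-155781225): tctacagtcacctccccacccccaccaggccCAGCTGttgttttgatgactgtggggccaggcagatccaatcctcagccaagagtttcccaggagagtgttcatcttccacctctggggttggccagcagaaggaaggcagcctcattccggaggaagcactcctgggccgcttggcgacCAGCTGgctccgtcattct

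The highest intergenic site of all lay at chr7:99359201-99362850, 7786 bp upstream of a start of Serpinh1, which encodes the collagen chaperone HSP47. Its maximum signal was 242, 264 and 91.7 CPM without dox and 524, 465 and 234 CPM with dox, where CPM is coverage scaled to library size by the authors. It ranked between 2 and 10 in every list. The groups overlapped, because +dox replicate 3 lay below no dox replicates 1 and 2, while within each replicate number the +dox value was the higher. The region held 8 CAGCTG and 1 TGANTCA.

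The site at chr8:84188251-84193250, 6917 bp downstream of a start of the lincRNA Gm26887, had 129, 130 and 42.9 CPM without dox and 438, 254 and 115 CPM with dox. It is the exception among the 8: its maximum lies on a pair of TGACTCA copies with no CAGCTG in the window, although the region holds 2 CAGCTG and 6 TGANTCA in all. At chr7:142549551-142552300, 7671 bp downstream of a start of Nctc1, a noncoding transcript of the H19 and Igf2 locus, the signal was 170, 229 and 107 CPM without dox and 133, 224 and 203 CPM with dox. Here the groups overlapped, and only the number 3 pair was higher with dox.

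Another 2 of the 8 were centred upstream of genes for membrane and matrix proteins. The site at chr15:83468801-83472550, 6069 bp upstream of Pacsin2, which encodes a membrane-bending F-BAR protein, had 122, 134 and 49.3 CPM without dox and 108, 241 and 172 CPM with dox. The site at chr2:180224651-180229450 was centred 1191 bp upstream of Lama5, which encodes a laminin chain of basement membranes, and had 58.6, 71.6 and 45.0 CPM without dox and 175, 128 and 65.0 CPM with dox. That region was 4800 bp wide and covered the Lama5 start, while its maximum lay on the upstream side of the centre. Near Pacsin2 the +dox replicate 1 value was below that of its partner, and near Lama5 all 3 pairs were higher with dox. The last 3, near the lincRNAs Gm32585 and 1700025H01Rik and near Tmem88b, ranged from 34.7 to 93.5 CPM without dox and from 74.0 to 262 CPM with dox.

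**Figure D1:**
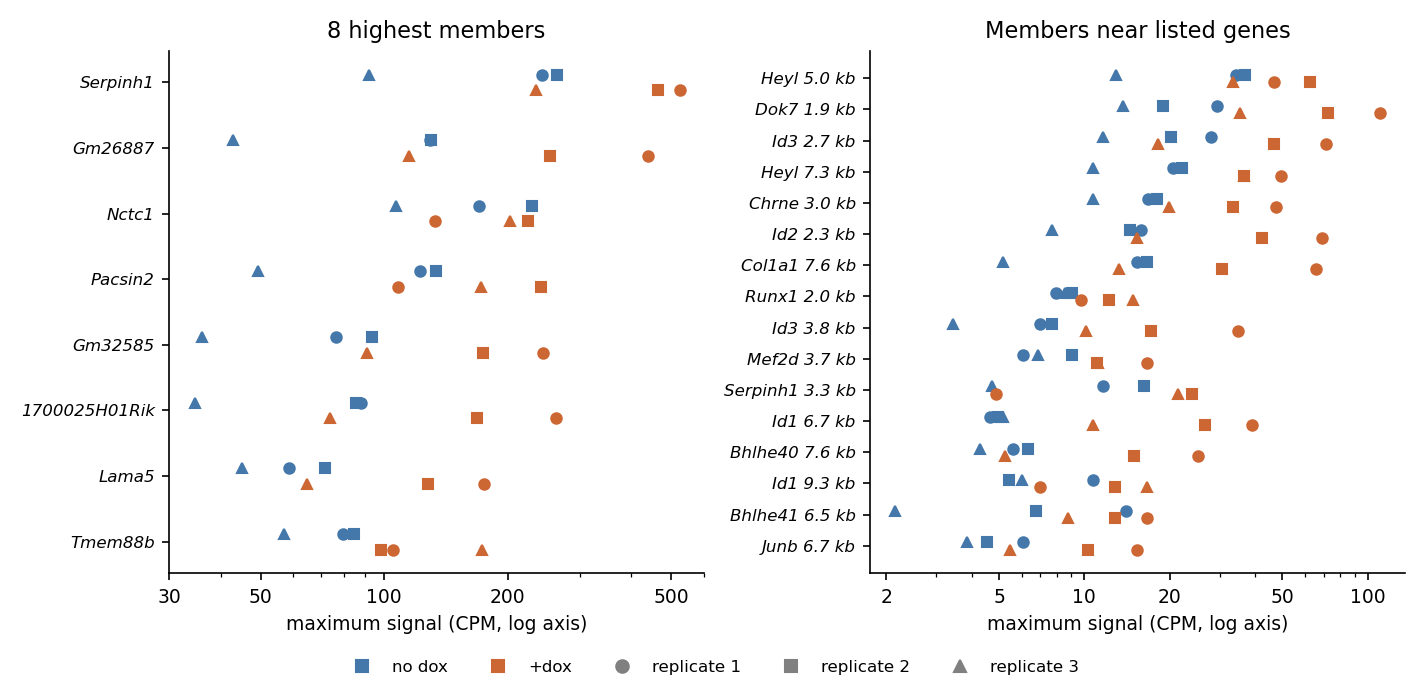
Maximum signal of single sites in each library, in CPM on a log axis, for the 8 highest intergenic sites (left) and for the 16 highest sites called in all 6 libraries near genes of the fixed lists, other than the top Serpinh1 site (right, with the distance to the start). Blue is no dox, orange is +dox, and the symbol gives the replicate number, and most orange points lie to the right of the blue point with the same symbol.

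For the most part the sites were spread over the chromosomes as all regions were. Chromosome 11 held 160 (9.15%) of them against 8.93% of all regions, and chromosome X held 11 (0.629%) against 1.79%. Sites were 350 to 8150 bp wide with a median of 1350 bp, the same median as over all regions. For 687 sites (39.3%) the nearest start belonged to a protein-coding gene, for 471 (26.9%) to a lincRNA, for 263 (15%) to a pseudogene, for 135 (7.72%) to a small RNA gene and for 80 (4.57%) to an antisense transcript. So the nearest start was more often not that of a protein-coding gene. The word intergenic holds in full for 1400 sites (80.0%), and the centre of the other 349 lay inside an annotated gene that is not protein-coding, in 231 cases a lincRNA gene.

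A protein-coding start lay within 10 kb of 866 sites (49.5%). Of these, 711 (82.1%) were upstream of the start, and the other 155 lay past the end of a short gene, a position that the rule leaves only to genes shorter than the distance. At 573 of the 866 (66.2%) a region lay within 1 kb of the start, measured from its edges. Among all protein-coding genes, 8758 of 21768 (40.2%) had one. A wide site can itself be that region, so the higher share follows in part from the counting. Another region lay within 10 kb of 1047 sites (59.9%), against 44.5% of all regions. These shares are descriptions, and neighbouring sites are not independent.

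Density changed little with distance. Per megabase of sequence open to the rule, there were 4.62 sites at 1 to 2 kb, 4.66 at 2 to 4 kb, 4.36 at 4 to 6 kb, 4.64 at 6 to 8 kb and 4.07 at 8 to 10 kb from the nearest start. Genic sequence at the same distances held more, from 10.9 regions per megabase at 1 to 2 kb down to 7.32 at 8 to 10 kb. Over the whole range the densities were 4.48 and 8.83 per megabase. Just inside the lower limit, a site 1002 bp from Gm16365 was called in 2 libraries with a mean height percentile of 39.8, and just outside it a region 997 bp from Gm9568 was called in 2 libraries with a mean of 37.6. At the upper limit, the last site inside was 9988 bp from 9130204K15Rik, called in 6 libraries with a mean of 77, and the first outside was 10010 bp from Ccdc9, called in 2 libraries with a mean of 28.6.

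A peak was present at 38.2%, 55.1% and 69.2% of the intergenic sites without dox and at 47.8%, 57.7% and 99.0% with dox. This made 54.1% ± 15.5 without and 68.2% ± 27.2 with dox (mean and SD of 3 libraries). The gap of 14.0 points is a description with no test, since the same calls chose the sites, and it was smaller than the SD of the +dox libraries. Each +dox library had more of the sites than the no dox library with its number, and without +dox replicate 3 the difference was 3.78 points. The group means rose in the other classes as well. They were 52.6% and 64.2% for genic sites at 1 to 10 kb and 54.6% and 66.6% for intergenic sites beyond 10 kb. Promoter sites went from 57.9% to 82.9%.

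In every list the median peak at these sites ranked above the middle, in some only slightly. The lists also hold peaks that only 1 library called. The sites cannot include these, so ranks above the middle may follow from the choice of sites. The median height percentile was 61.5, 60.7 and 61.2 without dox, a narrow range. With dox it was 52.8, 54.4 and 84.8. The first 2 +dox values were below and the third above every no dox value, so that the mean difference of 2.92 points (two-sided exact permutation p = 1, adjusted p = 1 over 9 tests, where 3 against 3 libraries can give no p under 0.1) averages values on both sides. Without +dox replicate 3 it was -7.13 points, and with only as many peaks kept in that list as the shortest one has, an alternative chosen after seeing the data, it was -7.04 points. Percentiles are taken within a list, and that list held 53661 peaks.

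**Figure D2:**
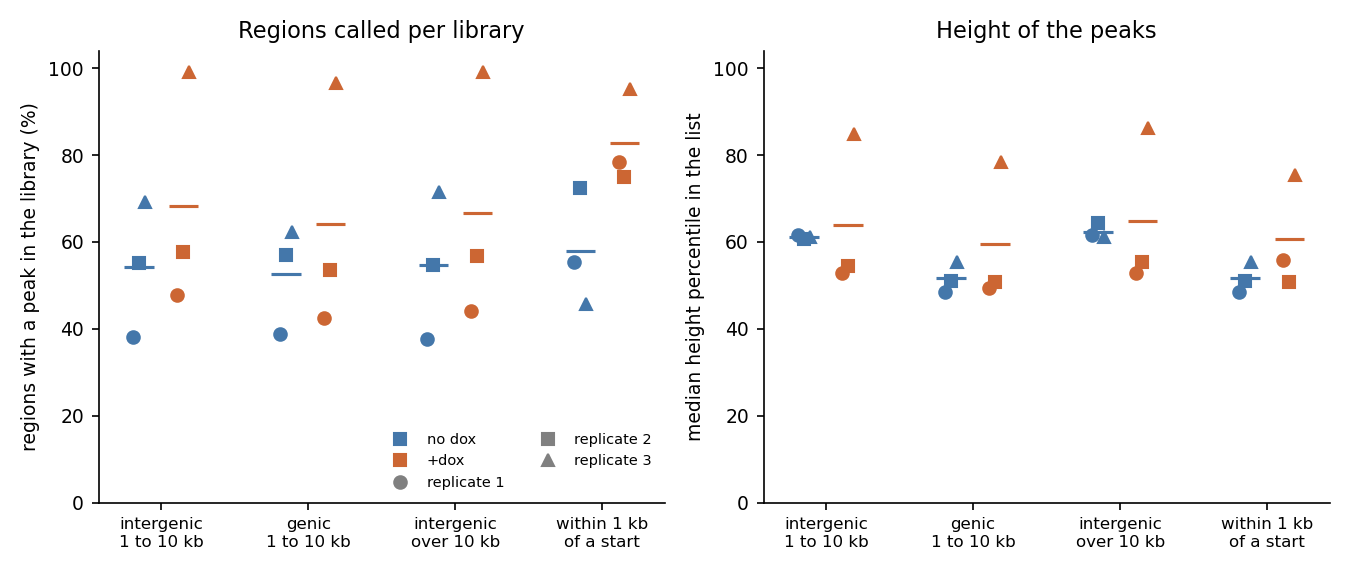
Share of regions with a peak (left, %) and median height percentile of those peaks within their list (right), for each library and each of 4 classes of region. Points are libraries, symbols give the replicate number, and lines are group means, and in every class the +dox replicate 3 triangle stands above the other libraries.

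Of the 1749 sites, 418 (23.9%) were called in all 6 libraries, where 25.8% of all regions were. Another 669 (38.3%) were called in only 2, where 31.9% of all regions were. By the study's rule of 2 in 3 libraries, 705 sites (40.3%) belonged to the no dox and the +dox set, 456 (26.1%) to the +dox set alone, 105 (6.00%) to the no dox set alone, and 483 (27.6%) to neither, with 1 library of each group. Over all regions these shares were 45.1%, 28.4%, 5.11% and 21.4%, so the share in the +dox set alone was near the background. With calls of +dox replicate 3 not counted, an alternative chosen after seeing the data, 133 sites (7.60%) were called in both remaining +dox libraries and in fewer than 2 no dox libraries, where 10.9% of all regions were. More +dox than no dox libraries had a peak at 579 sites (33.1%), fewer at 185 (10.6%) and equally many at 985 (56.3%), where 39.6%, 8.23% and 52.2% of all regions did. Over replicates 1 and 2 only, more +dox libraries had one at 482 sites (27.6%) and fewer at 326 (18.6%), where 27.7% and 16.7% of all regions did.

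A peak in every +dox library and in none of the no dox libraries was found at 49 sites (2.80%), where 3.38% of all regions had that pattern, so the share was near the background. None (0) had the opposite pattern, which 0.0266% of all regions had. The count of 49 changed with the length of the +dox replicate 3 list: when that list kept only as many peaks as the shortest one it was 5, and with all lists at that length it was 6. With that library left out, so that fewer libraries must agree, it was 50. The 5 of these sites with the highest mean percentile in the +dox lists are shown as the highest examples of the pattern, and 3 of them hold CAGCTG.
4930526H09Rik (chr13:110907676-110907875): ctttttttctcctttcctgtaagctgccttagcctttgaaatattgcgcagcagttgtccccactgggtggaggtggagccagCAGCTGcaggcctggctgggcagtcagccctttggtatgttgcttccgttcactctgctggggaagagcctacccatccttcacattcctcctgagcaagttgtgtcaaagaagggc
1700031A10Rik (chr17:36920276-36920475): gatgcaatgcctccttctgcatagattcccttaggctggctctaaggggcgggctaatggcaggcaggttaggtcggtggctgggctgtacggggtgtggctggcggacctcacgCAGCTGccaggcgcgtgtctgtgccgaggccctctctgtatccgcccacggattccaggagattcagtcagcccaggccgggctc
4930474B08Rik (chr1:90866876-90867075): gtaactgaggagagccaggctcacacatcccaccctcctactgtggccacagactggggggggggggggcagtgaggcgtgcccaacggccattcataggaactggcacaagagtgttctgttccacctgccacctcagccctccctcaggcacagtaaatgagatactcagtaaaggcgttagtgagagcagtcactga
Gm6916 (chr7:128319176-128319375): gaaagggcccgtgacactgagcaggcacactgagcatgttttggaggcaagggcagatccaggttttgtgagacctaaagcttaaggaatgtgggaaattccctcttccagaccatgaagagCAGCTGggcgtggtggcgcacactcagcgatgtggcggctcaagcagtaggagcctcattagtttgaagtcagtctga
B230208H11Rik (chr10:12919276-12919475): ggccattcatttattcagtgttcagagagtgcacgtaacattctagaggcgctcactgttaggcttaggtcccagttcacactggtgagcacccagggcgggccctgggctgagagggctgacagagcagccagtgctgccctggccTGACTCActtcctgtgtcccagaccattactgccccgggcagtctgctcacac

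All 5 were weak beside the sites shown before. The highest, at chr13:110907401-110908050, 3879 bp upstream of the lincRNA 4930526H09Rik, reached 17.4, 14.5 and 3.74 CPM with dox. The next, at chr17:36919901-36920850, 3417 bp upstream of the antisense transcript 1700031A10Rik, reached 20.2, 8.90 and 3.49 CPM. The other 3 were between 3.98 and 13.9 CPM. No protein-coding start lay within 10 kb of any of the 5. A missing peak in a no dox list says that the caller made none there, and the lists give no signal outside peaks. Over the 49 sites, 25 (51.0%, 95% Wilson interval 37.5 to 64.4) held CAGCTG near the maximum and 2 (4.08%, 1.13 to 13.7) held TGANTCA, and their median width was 850 bp.

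The 418 sites called in all 6 libraries allow the signal itself to be compared. Their median maximum was 8.38, 10.4 and 7.29 CPM without dox and 16.7, 16.7 and 15.6 CPM with dox, so the groups of medians did not overlap. The median log2 difference was 0.84 (1.79-fold), and 396 of the 418 sites were higher with dox and 22 lower. Over all 4838 regions called in every library the median was 0.91 (1.88-fold), with 4650 higher, so the intergenic sites shared a shift that ran through the whole table. Promoter sites had a median of 0.99, genic sites at 1 to 10 kb 0.81 and intergenic sites beyond 10 kb 0.77.

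Site by site, none passed the test. In limma on log2 maximum signal 0 of the 418 sites and 0% of all regions had an adjusted p under 0.05, and the smallest adjusted p was 0.203. At an unadjusted p under 0.05 there were 89 sites (21.3%), each higher with dox, where 24.2% of all regions passed in that direction. In a fit with a block for the replicate number 194 sites (46.4%) passed at an adjusted p under 0.05, each higher with dox, where 53.5% of all regions did. When each library was first centred on its median over all regions, 0 sites passed with the block and 0 without it, and the median difference at the sites was -0.08. CPM has no spike-in, so whether a shift common to all regions lies in the binding or in the scale cannot be told apart.

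Every +dox library was above every no dox library at 137 of the 418 sites (32.8%), against 27.5% of all regions, and below it at 0 sites, as at 0% of all regions. Within replicate numbers, 334 sites (79.9%) were higher with dox in pair 1, 356 (85.2%) in pair 2 and 394 (94.3%) in pair 3. Over all regions the shares in these pairs were 87.9%, 86.7% and 91.6%. In all 3 pairs 278 sites (66.5%) were higher and 3 (0.718%) lower, where 72.3% of all regions were higher and 0.331% lower. Without +dox replicate 3, limma passed 130 of 427 sites (30.4%), of which 129 were higher with dox, where it passed 40.2% of all regions.

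**Figure D3:**
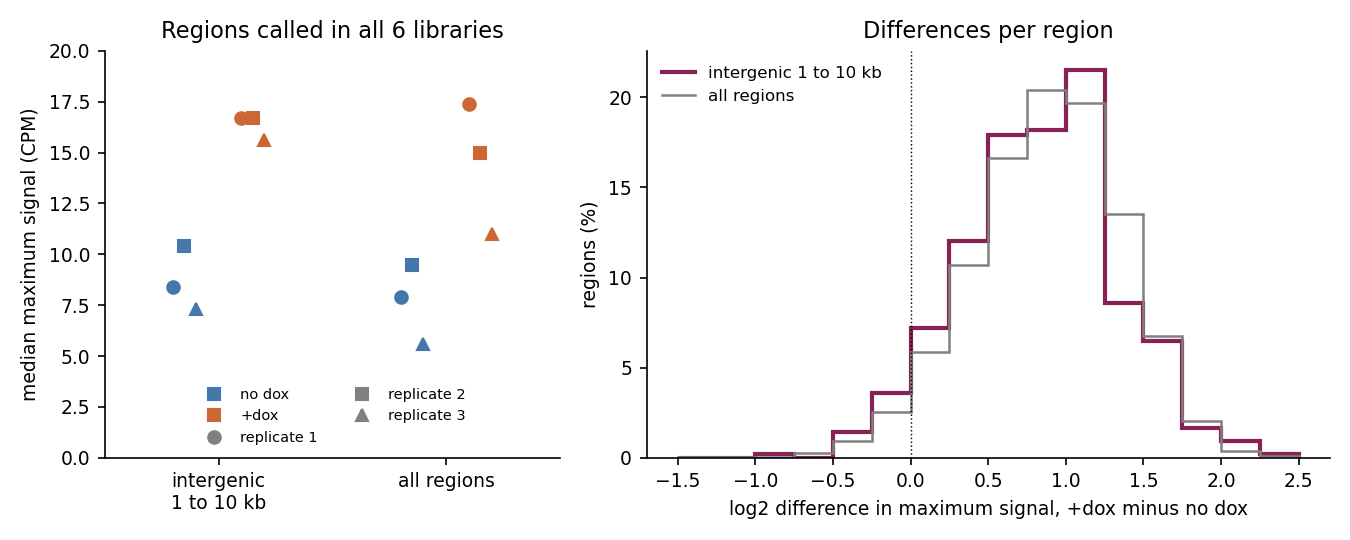
Left, median maximum signal (CPM) in each library over the 418 intergenic sites and the 4838 regions called in all 6 libraries. Right, share of regions (%) by log2 difference in maximum signal, +dox minus no dox, in steps of 0.25, where the intergenic sites follow the curve of all regions with most of both to the right of 0.

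No site is singled out by the test, so the sites with the largest differences were named after their values were seen. The largest was at chr2:152179951-152181150, 5132 bp from a start of the pseudogene Rps15a-ps7, with 7.45, 9.48 and 2.57 CPM without dox and 63.5, 33.4 and 14.2 CPM with dox. Its log2 difference was 2.46 ± 0.64 (SE; limma adjusted p = 0.203, and 1.64e-06 with the replicate block). The second was a site 6651 bp upstream of Id1, at chr2:152728701-152730500, with 4.65, 4.97 and 5.14 CPM without dox and 39.1, 26.7 and 10.7 CPM with dox. Its difference was 2.18 ± 0.58 (limma adjusted p = 0.203, and 1.64e-05 with the block). At each of these sites every +dox value was above every no dox value. The sequence around the Id1 maximum is shown since it is the site of a listed gene with the largest difference, and it holds 1 CAGCTG.
Id1 (chr2:152729626-152729825): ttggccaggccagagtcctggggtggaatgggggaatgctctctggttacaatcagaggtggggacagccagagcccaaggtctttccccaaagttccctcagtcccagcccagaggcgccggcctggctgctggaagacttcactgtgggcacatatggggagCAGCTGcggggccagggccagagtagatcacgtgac

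In the other direction the differences were smaller. The lowest was -0.77 ± 0.66 at chr12:73415851-73417600, near the lincRNA D830013O20Rik, with 16.8, 21.7 and 11.6 CPM without dox and 2.79, 13.3 and 22.7 CPM with dox (limma adjusted p = 0.372). The groups overlapped, since the number 3 pair went the other way. A site 1137 bp upstream of Adamts1, a matrix protease, had 6.05, 8.13 and 12 CPM without dox and 4.88, 6.67 and 9.71 CPM with dox. Its difference of -0.30 ± 0.56 went the same way in all 3 pairs and did not pass the test (limma adjusted p = 0.667).

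CAGCTG was present within 100 bp of the maximum in 864 of 1749 sites (49.4%, 95% Wilson interval 47.1 to 51.7). In windows of the same length 2 kb to either side it was present in 11.2% (10.2 to 12.3), and in the 200 bases at the upstream end of RefSeq promoters (GRCm38.p6) in 10.3%. Promoter sites had it in 24.2% (23.3 to 25.1) and all regions in 37.3%. These intervals cover counting error only. The motif was densest at the maximum itself, with 4 copies per kb within 50 bp of it, 2.70 per kb between 50 and 100 bp, and 0.652 per kb between 950 and 1000 bp. Among the 10 E-boxes it was the most frequent at these sites, followed by CAGATG with its complement CATCTG (23.0%) and CACCTG with CAGGTG (19.7%).

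TGANTCA was present in 370 sites (21.2%, 19.3 to 23.1), in 5.32% (4.62 to 6.11) of the windows 2 kb away and in 4.96% (4.51 to 5.44) of promoter sites. It lay at 1.29 copies per kb within 50 bp of the maximum and at 0.332 per kb between 950 and 1000 bp. Both motifs occurred together in 183 sites (10.5%) and neither in 698 (39.9%). Copies of the motifs can share at most 2 bases and were counted apart. The windows had a median GC content of 55.5%, where promoter sites had 65.0%, and repeats marked in the reference made up 8.68% of them on average.

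**Figure D4:**
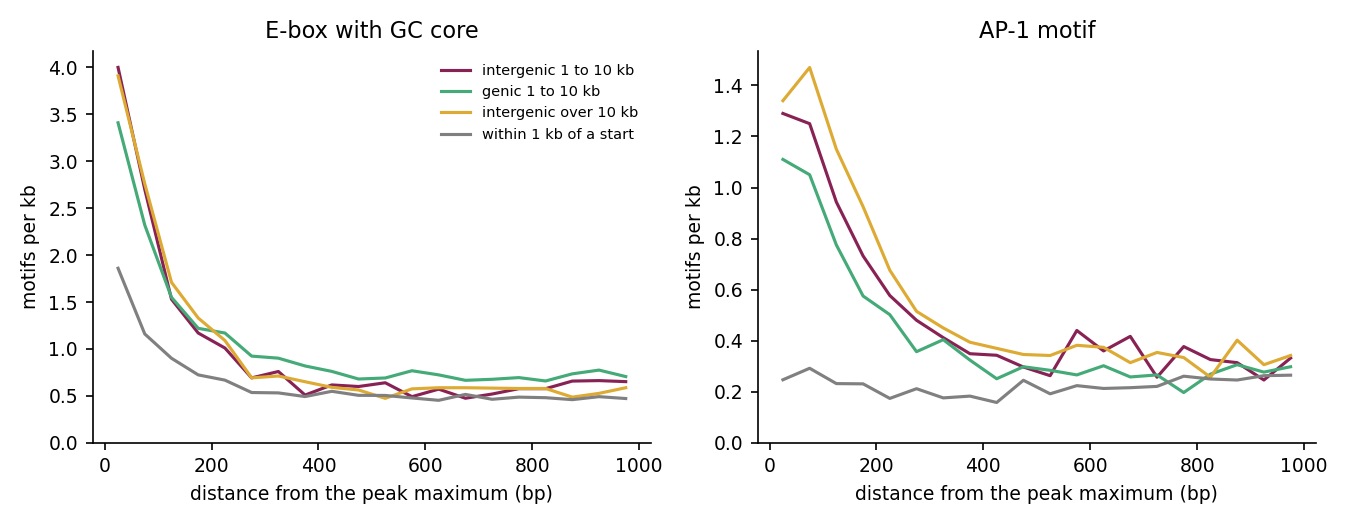
Copies per kb of the E-box with a GC core (left) and of the AP-1 motif (right) against distance from the peak maximum (bp, in steps of 50 bp), for 4 classes of region. At the intergenic sites the E-box falls from 4 to under 1 copy per kb within 300 bp, and the AP-1 curve of promoter sites changes little.

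Sites with the E-box had higher peaks. In sites with CAGCTG near the maximum the median height percentile was 67.5, 67.4 and 70.0 without dox and 60.8, 60.5 and 88.9 with dox. In sites without it the medians were 53.3, 53.6 and 55.3 without dox and 45.3, 50.8 and 79.9 with dox. The sites with the motif were higher in all 6 libraries, by 9.04 to 15.6 points, and they were also called more often, from 44.4% against 32.1% in no dox replicate 1 to 99.4% against 98.6% in +dox replicate 3. For TGANTCA the difference in height ranged from 0 to 6.98 points. No test was run on these splits.

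The E-box also went with how many libraries called a site. It was present in 256 of the 418 sites called in all 6 libraries (61.2%, 56.5 to 65.8) and in 281 of the 669 called in 2 (42.0%, 38.3 to 45.8). The shares for TGANTCA were 23.0% (19.2 to 27.2) and 18.8% (16.1 to 22.0). Sites of the +dox set alone had CAGCTG in 46.9% (42.4 to 51.5), those of the no dox set alone in 42.9% (33.8 to 52.4), and those of both sets in 57.3% (53.6 to 60.9).

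Between the treatments the motif share of peaks at these sites was not shown to differ. CAGCTG was found near the maximum of 55.2%, 48.8% and 40.2% of the peaks without dox and 51.9%, 52.7% and 50% with dox, so the +dox values lay inside the range of the no dox values. The means were 48.1% ± 7.52 and 51.5% ± 1.40 (SD, n = 3 each), 3.45 points apart (two-sided exact permutation p = 0.6, adjusted p = 0.771). Without no dox replicate 3, which had the lowest share, the difference was -0.0781 points.

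Set beside genic sites at the same distance, the intergenic sites had higher peaks and more E-boxes in every library, and neither difference passed after adjustment. Their median height percentile was higher by 6.97 ± 3.69 points (mean and SD over 6 libraries, range 3.49 to 12.9, exact two-sided sign-flip p = 0.0312, adjusted p = 0.0938). It was 1.82 points with all lists at equal length, 3.11 points for total signal, 3.88 points for sites of 3 or more libraries and 5.07 points without +dox replicate 3. CAGCTG was more frequent by 3.28 ± 2.31 points (range 1.06 to 5.86, higher in 6 of 6 libraries, exact sign-flip p = 0.0312, adjusted p = 0.0938). The p of 0.0312 is the smallest that 6 libraries can give. TGANTCA was more frequent by 2.76 ± 1.78 points in 5 of 6 libraries (exact sign-flip p = 0.0625, adjusted p = 0.141). The E-box difference depends on the window: with the whole region searched it was -3.25 points. With all lists at equal length it was 0.00266 points, and without +dox replicate 3 it was 0.712 points.

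Set beside intergenic sites more than 10 kb from a start, the differences were small. The median height percentile differed by -0.998 ± 1.44 points and was equal in 3 of 6 libraries (exact sign-flip p = 0.25, adjusted p = 0.45). The CAGCTG share differed by -0.241 ± 1.14 points, above 0 in 3 of 6 libraries (exact sign-flip p = 0.688, adjusted p = 0.773). TGANTCA was less frequent in 6 of 6 libraries, with differences from -3.03 to -0.0876 points and a mean of -1.38 ± 1.08 (exact sign-flip p = 0.0312, adjusted p = 0.0938). The mean was -0.632 at equal list length, -0.422 from 2 kb outward, -0.382 with the whole region searched, -3.77 with protein-coding starts only and -1.44 without +dox replicate 3. The 6 libraries share their regions, so these tests cover the spread between libraries and not that between sites.

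**Figure D5:**
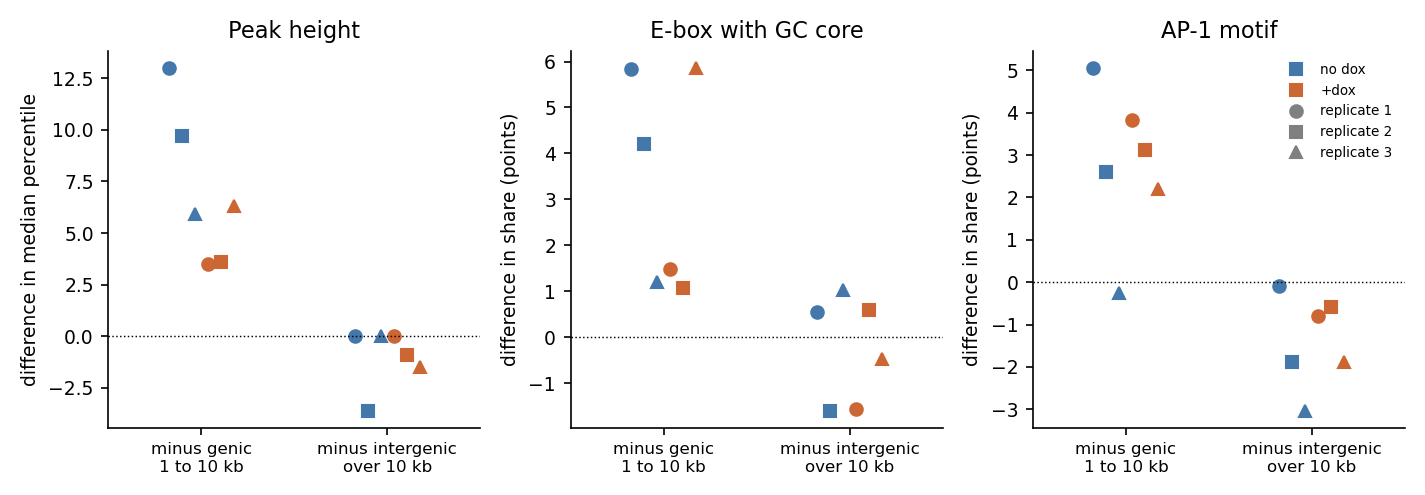
Intergenic sites at 1 to 10 kb minus genic sites at 1 to 10 kb and minus intergenic sites over 10 kb, in each library, for the median height percentile and for the share of peaks with the E-box or the AP-1 motif (points). Against genic sites 6 of 6 libraries lie above 0 for height and for the E-box.

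A member lay within 10 kb of a start of 915 protein-coding genes, which is 4.20% of the 21768 annotated. Of 185 genes in 9 lists on muscle and its regulation, 34 had such a site (18.4%). The lists were drawn up with earlier results of these data known, and no test was run on them. The lists with the largest shares were AP-1 (4 of 10 genes), Id and E proteins with E-box repressors (7 of 18) and matrix (5 of 21). Fusion and adhesion had 4 of 21, excitation and synapse 4 of 22, muscle regulators 3 of 17, cell cycle 2 of 14, signalling 3 of 29 and sarcomere 2 of 33.

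In the list of Id and E proteins with E-box repressors, 7 of 18 genes had a site. Id1 had 5 sites within 10 kb of a start, more than any other protein-coding gene, and 4 genes had 3 (Id3, Socs3, Drap1 and AI837181). These genes were named after their counts were seen. Not all of the Id1 sites were called in every library. The site 1724 bp downstream was called only in no dox replicate 2 and +dox replicate 3, at 2.26 and 1.25 CPM. The site 5574 bp downstream was nearer to the pseudogene Gm14162. Id proteins bind E proteins without binding DNA and so keep them from MyoD1. The list also held sites near Id2, the Notch-responsive repressors Hes1 and Heyl, and the E-box repressors Bhlhe40 and Bhlhe41.

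The highest of them, at chr4:123227251-123229800, 5031 bp upstream of Heyl, had 34.2, 37.0 and 12.9 CPM without dox and 46.7, 62.8 and 33.6 CPM with dox. A site 2747 bp upstream of Id3, at chr4:136140001-136141500, had 27.9, 20.3 and 11.6 CPM without dox and 71.1, 46.7 and 18.2 CPM with dox. A site centred 2260 bp upstream of Id2, at chr12:25097151-25101650, had 15.8, 14.5 and 7.71 CPM without dox and 69.0, 42.3 and 15.4 CPM with dox. The Id2 region was 4500 bp wide and reached almost to the start. All 3 pairs were higher with dox at each of these sites, and the groups overlapped through +dox replicate 3. The log2 differences were 0.87 ± 0.58, 1.07 ± 0.60 and 1.56 ± 0.61, with limma adjusted p of 0.275, 0.229 and 0.203. With the replicate block those near Id3 and Id2 passed (limma adjusted p = 0.018 and 0.00106) and that near Heyl did not (0.0512). The Heyl site had CAGCTG near its maximum, while those near Id3 and Id2 had none there and 2 and 5 in their regions. A second site, 7256 bp upstream of Heyl, had 20.5, 22.1 and 10.7 CPM without dox and 49.5, 36.7 and 36.5 CPM with dox. Its groups did not overlap, and the log2 difference was 1.26 ± 0.55 (limma adjusted p = 0.203, and 0.00638 with the block).

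Among muscle regulators, sites near Runx1, Mef2d and Pax7 are described. The site 1951 bp upstream of a Runx1 start had 7.91, 9.03 and 8.57 CPM without dox and 9.76, 12.2 and 14.9 CPM with dox. The site 3722 bp upstream of Mef2d, a partner of MyoD1 at muscle genes, had 6.05, 9.03 and 6.86 CPM without dox and 16.7, 11.1 and 11.2 CPM with dox. Near Runx1 and Mef2d every +dox value was above every no dox value. Neither passed the test (limma adjusted p = 0.453 and 0.27 for Runx1 and Mef2d, and 0.241 and 0.0626 with the block). The Pax7 site, near the marker gene of muscle stem cells, was called in +dox replicates 1 and 3 only, at 6.28 and 3.98 CPM.

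In the excitation and synapse list the highest sites were near Dok7 and Chrne. The site 1866 bp upstream of Dok7, an activator of the receptor kinase MuSK at the neuromuscular junction, had 29.3, 19.0 and 13.7 CPM without dox and 111, 72.3 and 35.4 CPM with dox, with 5 CAGCTG in the region. The groups did not overlap, and the log2 difference was 1.74 ± 0.58 (limma adjusted p = 0.203, and 0.0004 with the block). The site 2984 bp upstream of Chrne, which encodes the epsilon subunit of the adult acetylcholine receptor, had 16.8, 18.1 and 10.7 CPM without dox and 47.4, 33.4 and 19.9 CPM with dox. Its groups did not overlap either, with a difference of 1.09 ± 0.56 (limma adjusted p = 0.213, and 0.0156 with the block). Atp2a1, the calcium pump of fast fibres, had 2 sites, the higher of them 2917 bp upstream with 8.38, 11.7 and 6.43 CPM without dox, no peak in +dox replicate 1, and 11.7 and 11 CPM in +dox replicates 2 and 3. Chrnd had a site 9512 bp upstream that was called in the number 3 libraries only, and Prss56 was nearer to it.

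Sites near fusion and sarcomere genes were called in part of the libraries. Near Itga7, Itga3, Cadm4 and Mymk no site was called in all 6 libraries. Only intergenic sites 1 to 10 kb from a start are counted, so regions at the promoters or inside these genes are left out. The Cadm4 site 1948 bp upstream was called in 3 libraries, at 4.06 and 8.57 CPM in no dox replicates 2 and 3 and at 19.7 CPM in +dox replicate 3. The Itga7 site 2218 bp upstream was called in the number 3 libraries only, at 3 CPM without and 12 CPM with dox, and the Itga3 site 2524 bp upstream likewise at 3.43 and 1.74 CPM. The site past the end of Mymk, the fusion protein myomaker, had a mean height percentile of 10.1, with 1.81 CPM in no dox replicate 2 and 0.996 CPM in +dox replicate 3. Of 33 sarcomere genes, Actc1 had a site called in +dox replicates 2 and 3 at 4.45 and 3.24 CPM, and Myh7 a site with 3.26 and 3.61 CPM in no dox replicates 1 and 2 and 7.97 CPM in +dox replicate 3.

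The AP-1 genes with sites were Junb, Fosl2, Fosl1 and Fosb, and each site was called in all 6 libraries. The Junb site, 6657 bp upstream and nearer to Hook2, had 6.05, 4.52 and 3.86 CPM without dox and 15.3, 10.3 and 5.48 CPM with dox, and held 4 TGANTCA. The Fosl2 site, centred 1026 bp upstream, had 8.38, 4.52 and 2.57 CPM without dox and 13.2, 10 and 5.23 CPM with dox. Its region was 4350 bp wide and covered the start, and its maximum lay nearer to the start than to the region's centre. These values therefore cannot be told apart from signal at the Fosl2 promoter. The Fosl1 site, 2222 bp upstream, had 5.58, 4.52 and 2.14 CPM without dox and 4.88, 7.79 and 6.72 CPM with dox. The groups overlapped at these 3, and among them a pair was lower with dox only near Fosl1, that of number 1. Their limma adjusted p was 0.226, 0.256 and 0.322, and 0.0242, 0.0346 and 0.0912 with the block. The Fosb site, 6674 bp upstream, had 2.79, 3.61 and 1.71 CPM without dox and 11.2, 5 and 4.73 CPM with dox, and here the groups did not overlap. Its log2 difference of 1.31 ± 0.57 was the largest of the 4 (limma adjusted p = 0.203, and 0.00479 with the block).

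In the matrix list, besides the top Serpinh1 site, the highest was 7599 bp upstream of Col1a1, with 15.4, 16.7 and 5.14 CPM without dox and 65.6, 30.6 and 13.2 CPM with dox. Its log2 difference was 1.44 ± 0.64 (limma adjusted p = 0.203, and 0.00214 with the block). The groups overlapped through +dox replicate 3, and each pair was higher with dox. The site 5808 bp upstream of Lox, the collagen cross-linking oxidase, had 6.05, 9.03 and 20.6 CPM without dox, no peak in +dox replicate 1, and 9.45 and 29.1 CPM in the other 2. Here no dox replicate 3 was the highest of its group, unlike at Col1a1. Sparc and Col6a1 also had sites, 5142 and 6982 bp upstream. For Btg2, an inhibitor of proliferation, the higher of 2 sites had 4.65, 6.77 and 3.86 CPM without dox and 7.67, 7.79 and 7.97 CPM with dox, and that of Ccnd1, cyclin D1, had 3.72, 4.97 and 2.14 CPM without dox and 6.62, 4.17 and 4.23 CPM with dox. In the signalling list Notch3, Tgfb2 and Igfbp5 had sites of at most 9.71 CPM, none of them called in every library.

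The sites with the most CAGCTG are shown because 2 of the 3 were weak. Copies were counted in the region extended by 100 bp on each side.
Gm37141 (chr4:151922176-151922375): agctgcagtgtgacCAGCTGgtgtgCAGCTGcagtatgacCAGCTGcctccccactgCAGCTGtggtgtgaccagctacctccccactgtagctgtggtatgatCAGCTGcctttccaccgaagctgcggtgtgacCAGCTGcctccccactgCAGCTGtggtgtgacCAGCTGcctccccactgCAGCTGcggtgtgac
Lmod3 (chr6:97260151-97260350): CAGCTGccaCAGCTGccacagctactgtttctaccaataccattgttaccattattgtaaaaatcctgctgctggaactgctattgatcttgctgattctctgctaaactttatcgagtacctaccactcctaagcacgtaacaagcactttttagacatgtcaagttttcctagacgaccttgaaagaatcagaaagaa
Cirbp (chr10:80161626-80161825): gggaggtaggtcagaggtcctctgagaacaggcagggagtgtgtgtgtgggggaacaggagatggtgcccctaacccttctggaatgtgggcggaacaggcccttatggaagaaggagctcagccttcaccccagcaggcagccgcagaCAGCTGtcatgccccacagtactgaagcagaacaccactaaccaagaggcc

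The site at chr4:151922051-151922600, near Gm37141, held 17 CAGCTG, 9 of them in the window shown, in a tandem array. It was called in only 2 libraries, at 3.61 CPM in no dox replicate 2 and 1.99 CPM in +dox replicate 3. The site at chr6:97259901-97260400, 7391 bp upstream of Lmod3, which encodes the sarcomeric actin nucleator leiomodin 3, held 14, and it was called at 5.58 and 1.49 CPM in +dox replicates 1 and 3. The third, at chr10:80158401-80166550, 5303 bp upstream of Cirbp, held 13 in the widest of all the sites and was called in all 6 libraries, with 44.7, 47.9 and 21.9 CPM without dox and 40.1, 67.8 and 58.3 CPM with dox. Reads from a tandem array may align to more than one place, so the values near Gm37141 are uncertain. The window near Lmod3 opens on closely spaced copies, and the same doubt may apply there.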

How the data were processed

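MyoD1 CUT and RUN was analysed in 6 libraries, 3 no dox and 3 +dox, from separate biological replicates as labelled. The authors ran nf-core/cutandrun on mm10 with blacklist removal and CPM scaling, and called peaks per library with SEACR in relaxed mode. The deposited lists give, for each peak, the total and the maximum signal (coverage in CPM, with no spike-in). No input or untagged control was used here, and the wild-type libraries were not analysed here. Depth was inferred from the step of which maxima are whole multiples.

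Peaks that overlapped or touched were merged, and a region takes the highest peak of each library. Motifs were searched within 100 bp of the maximum of the highest-ranking peak of a region, and of each library's own peak for shares by library. Regions called in all 6 libraries were fitted with limma 3.58.1 (R 4.3.3) on log2 maximum signal and adjusted over 4838 regions. Single values were compared with exact two-sided tests, over 20 assignments of libraries or 64 sign patterns, with Benjamini-Hochberg adjustment over 9 tests, of which that on the share of sites called is not printed, since the calls chose the sites. Scripts were tested on simulated data.

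The numbers were taken to pair the libraries: deviations from group means correlated across regions at 0.485, 0.267 and 0.628 for numbers 1, 2 and 3. Libraries of numbers 1 and 2 also correlated across numbers (0.265 and 0.219), so these are not clearly told apart. The labels do not say what a number marks. The members, gene lists and tests were chosen with earlier results of these data known. One gene of the lists is not reported here, and the counts over lists leave it out. Sites were named by rule: the 8 highest called in all 6 libraries, the 5 highest of each exclusive pattern, every list gene with a site, with full values for up to 3 per list, the 5 largest differences each way past the limma threshold (none were), and the 3 with the most CAGCTG. Values for Fosb, Mymk and the second Heyl site were added after they were seen.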

Additional observations from a re-analysis of the deposited data

How the results depend on the processing

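Of 162 recomputed values over 12 results, 137 kept their direction and their side of the threshold or stayed within the spread set for them, and no adjusted p of the 9 single tests fell under 0.0938 in any alternative. The difference in median height percentile between +dox and no dox changed sign with lists of equal length (-3.58), with replicates 1 and 2 only (-3.64), with the +dox replicate 3 list shortened (-7.04), and when libraries were left out, where it ranged from -7.13 (without +dox replicate 3) to 8.90. The CAGCTG difference between treatments was -3.27 with the whole region searched and ranged from -0.0781 to 7.18 with libraries left out. Against genic sites the CAGCTG difference was -3.25 with the whole region searched, and against distal intergenic sites it was 1.12 at equal length, 0.342 with the long list shortened, and -1.81 to 0.219 with libraries left out. The count of sites called in every +dox library and none without dox, 49, was 6 at equal length, 28 with protein-coding starts only, 84 with replicates 1 and 2 only, 5 with the long list shortened, and 50 to 161 with libraries left out, where fewer libraries must agree. The count of sites past the limma threshold, 0, was 194 with the replicate block, 89 at an unadjusted p under 0.05, 143 with replicates 1 and 2 only (29.8%, and 36.1% of all regions), and 0 to 130 with libraries left out, the 130 without +dox replicate 3 (30.4%, and 40.2% of all regions). The median log2 difference of 0.84 was 0.53 for total signal and -0.08 when centred, with or without the block. The replicate block gave exact sign-flip p of 1 and 0.5 for the height and the CAGCTG share, where 0.25 is the smallest possible, and changed no other call. The cause of these changes was not tested. Alternatives that use replicates 1 and 2 only, that shorten the long list or that join block and centring were chosen after seeing the data. The libraries differed in depth, and its effect on weak sites was not tested. A missing peak shows no absence of binding.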
